A study of Homo sapiens and Mus musculus with 4 samples.

Results

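The genes described here encode 8 transcription factors of lymphoid development. They are grouped here as EBF1, PAX5 and TCF3 for the B lineage, IKZF1 for both lymphoid lineages, and TCF7, LEF1, GATA3 and BCL11B for the T lineage. The grouping is a label and does not exclude a role in the other lineage. The genes were examined in 2 lists of ATF4 peaks from chromatin immunoprecipitation with sequencing (ChIP-seq). A peak was counted for a gene where it shared at least 1 base with the window formed by the gene span and 20 kb on each side. By this rule 34 of the 83088 peaks of mouse bone marrow and 0 of the 873 peaks of KG1a cells belonged to these genes. The mouse peaks come from the windows of Ebf1, Pax5 and Ikzf1. The other 5 mouse genes were not analysed here.

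The mouse bone marrow list was made from 1 anti-ATF4 library and 1 input library of C57BL/6 mice. The input was taken without antibody, and the labels state no age for the mice. The KG1a list was made in the same way, with the same Abcam antibody, from 1 ChIP and 1 input library of a human acute myeloid leukaemia line grown with 20% fetal bovine serum. Marrow is a mixture of many blood cell types, so a marrow peak cannot be assigned to B cells, T cell precursors or any other cell, and KG1a is a single line. The lists hold positions only, with no height, p-value or read depth, and no expression was measured in these samples, so the lymphoid label of the genes could not be set against RNA levels. With 1 ChIP library per source there is no spread between replicates and no test, and each statement below describes these lists.

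Lymphoid development runs through layers of transcription factors. TCF3 encodes the E2A proteins, which act with EBF1 to start the B cell programme, and PAX5 then holds cells in it. IKZF1 encodes Ikaros, a zinc finger protein needed for lymphoid commitment and often deleted in B cell leukaemia. In the thymus, Notch signalling turns on TCF7 (TCF-1) and GATA3, BCL11B completes commitment to the T lineage, and LEF1 acts beside TCF7 as a partner of beta-catenin. ATF4 is a basic leucine zipper factor of the integrated stress response. It binds composite sites with C/EBP proteins as its dimer partners and sites of the cyclic AMP response element type.

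Ebf1, whose product is the pioneer factor of the B lineage, carried most of the marrow peaks. Its window held 30 peaks, against 3 for Pax5 and 1 for Ikzf1, or 88.2% of the 34. Positions in mouse are on GRCm38. The Ebf1 window ran on chromosome 11 from 44600001 to 45030000, a length of 430 kb. Mouse windows were built on approximate gene spans, given to 2 decimals of a megabase (44.62 to 45.01 Mb for Ebf1) and not taken from an annotation. Distances to a gene end are therefore accurate to about 10 kb, and exons and introns are not named. The strand of the mouse genes was not used, so neither end is named as the start of a gene.

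Peaks in the Ebf1 window were 271 to 9569 bp wide, with a median of 700 bp, against a median of 544 bp over all marrow peaks. Of the 30, 10 were wider than 1 kb (33.3%, against 24.2% of the whole list) and 3 were wider than 2 kb (10.0%, against 9.38%). Together they covered 35.9 kb, 8.35% of the window. The share over 2 kb was therefore near that of the whole list, while the share over 1 kb and the median width were higher. The number of peaks was high for the length.

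That number can be set against end-to-end tiles of the same 430 kb laid over the mouse autosomes, each from the first to the last peak of its chromosome. Of 5566 tiles, 99.0% held at least 1 peak, so that a peak in a window of this size is no result in itself. The median tile held 13 peaks, the 25th and 75th percentiles were 9 and 19 peaks, and the fullest held 64. Only 5.79% of tiles, 322 of them, held 30 or more. In covered length, 3.56% of tiles reached the 8.35% of the Ebf1 window, and the median tile had 2.54%. Ebf1 thus stood in the upper tail of the genome in both measures, without being at its limit. The tile counts were of peaks as listed. Joining peaks with gaps of 1 kb or less left 16 in the Ebf1 window, a number not set against joined tiles.

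**Figure D1:**
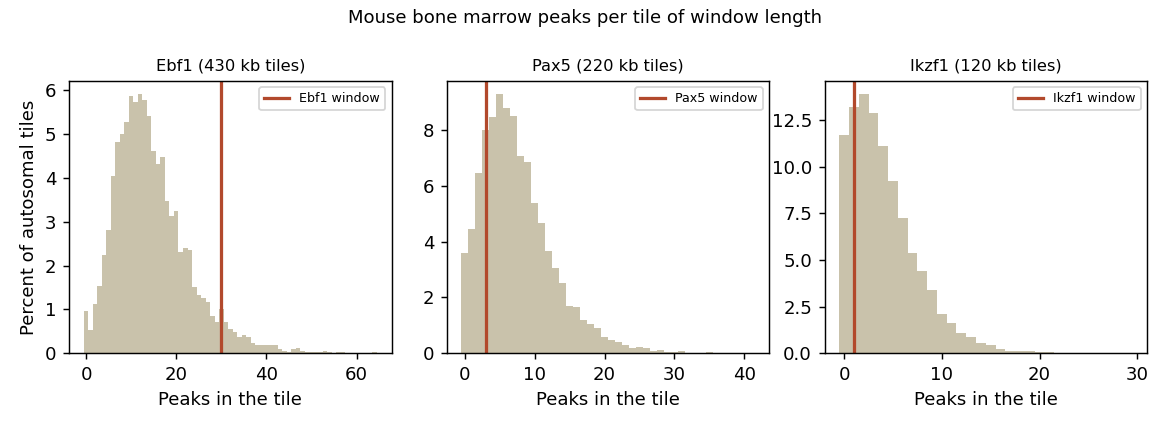
Percent of autosomal tiles (vertical axis) by the number of mouse bone marrow peaks they hold (horizontal axis), for tiles as long as the Ebf1, Pax5 and Ikzf1 windows, with a red line at the number in the gene's own window. The Ebf1 line at 30 peaks lies in the right tail, and the lines of Pax5 at 3 and Ikzf1 at 1 lie below the median tile, at counts that many tiles share.

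The density at Ebf1 also exceeded that of its surroundings. It was 69.8 peaks per Mb in the window, 39.5 per Mb in the 430 kb on the low-coordinate side and 30.2 per Mb in the 430 kb on the high-coordinate side. The flanks held 17 and 13 peaks and were covered to 3.40% and 3.04%. Chromosome 11 as a whole had 44.4 peaks per Mb, which is above the 33.9 per Mb of all autosomes, and the Ebf1 density was 1.57 times that of its chromosome.

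When peaks 3 kb or less apart were joined, the 30 Ebf1 peaks formed 13 groups, of which 7 were single peaks and 6 held the other 23. The fullest group had 7 peaks within 10.0 kb, from 44832002 to 44842038, about 212 to 222 kb from the low-coordinate end of the gene span. These 7 were between 271 and 1791 bp wide and covered 50.9% of that stretch. Beyond it followed the longest stretch without a peak, 95.9 kb from 44842039 to 44937974. The same joining put 2 of the 3 Pax5 peaks in 1 group. The share of all marrow peaks that lie this close to another was not computed, so grouping is not read as particular to Ebf1.

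The most heavily covered group lay at the high-coordinate end of Ebf1. It held 6 peaks from 44998757 to 45015701, which covered 82.0% of 16.9 kb. Its 13.9 kb made up 38.7% of all peak-covered bases of the window. In it lay the widest peak of the 3 genes, 9569 bp from 45003342 to 45012910, which extends across the approximate end of the gene span at 45.01 Mb. In width it ranked 125 among 83088 marrow peaks, and 0.15% of peaks were as wide. It alone made up 26.7% of the covered bases of the window.

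On the low-coordinate side of Ebf1, the widest pair of peaks stood next to each other. One of 2667 bp ran from 44648089 to 44650755 and one of 2115 bp from 44651062 to 44653176, about 28.1 to 33.2 kb inside the span. Both are among the 3 peaks over 2 kb. A smaller trio of 715, 385 and 391 bp followed between 44662559 and 44665400. Another group of 3 peaks, from 44749525 to 44755650, included 1 of 1616 bp.

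Of the 30 Ebf1 peaks, 27 touched the approximate gene span and 3 lay in the 20 kb margins alone. Those 3 were 406 bp wide at 44612556 to 44612961 on the low-coordinate side, and 1052 and 477 bp wide at 45013708 to 45014759 and 45015225 to 45015701 on the other. The nearest peaks outside the window were 1717 bp wide, 13.3 kb beyond its low-coordinate edge at 44584977 to 44586693, and 442 bp wide, 55.6 kb beyond its high-coordinate edge at 45085644 to 45086085. Peaks of Ebf1 were scattered through the deposited order of the list, from place 227 to place 80482, with 8 in the first 25% of the list (26.7%). What the list was ordered by is not stated, so the place is not read as strength.

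**Figure D2:**
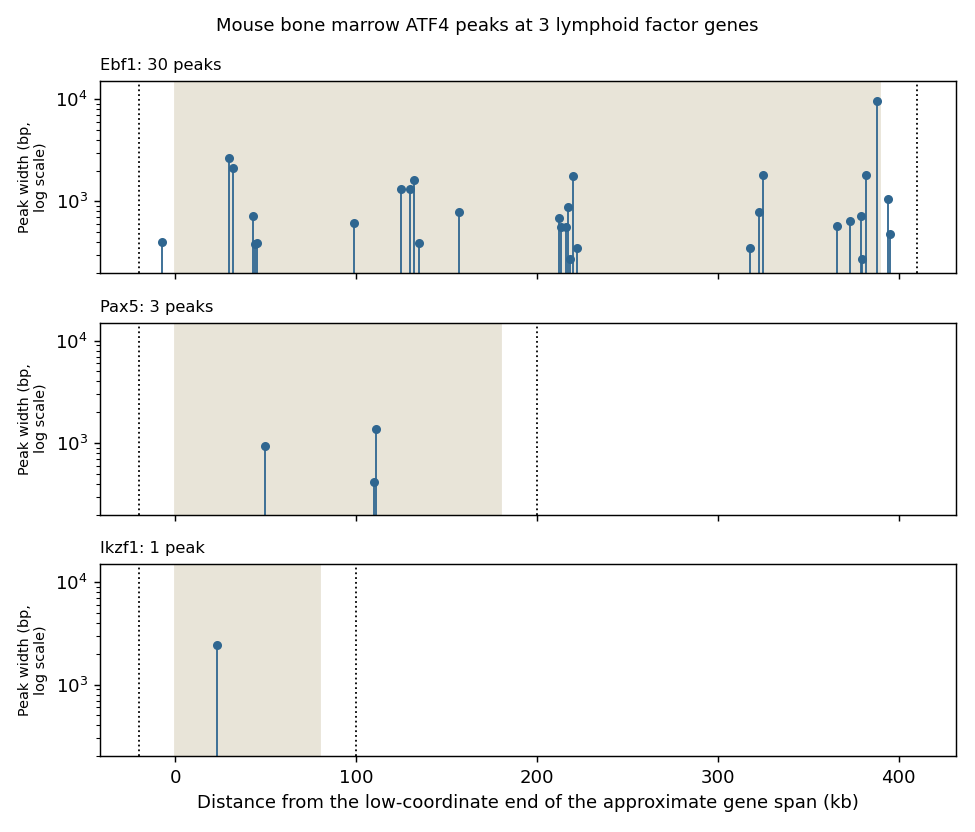
Mouse bone marrow ATF4 peaks at Ebf1, Pax5 and Ikzf1, each drawn at its centre as a distance in kb from the low-coordinate end of the approximate gene span (shaded), with its width in bp on a log axis; dotted lines mark the edges of the window, 20 kb outside the span. Ebf1 has 30 peaks, of which the widest (9569 bp) stands at the right end of the span, and Pax5 and Ikzf1 have 3 and 1.

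Pax5, the factor that holds cells in the B lineage, had few marrow peaks for the length of its locus. Its window on chromosome 4, from 44510001 to 44730000, held 3 peaks in 220 kb, all within the approximate gene span of 44.53 to 44.71 Mb. The first was 937 bp wide, from 44579380 to 44580316, about 49.8 kb from the low-coordinate end. The other two formed a pair about 110 kb from that end, 413 bp wide from 44639353 to 44639765 and 1372 bp wide from 44640097 to 44641468. No listed peak lay in the 88.5 kb from there to the high-coordinate edge of the window, a stretch that includes that end of the gene.

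The Pax5 peaks covered 1.24% of the window. Their density was 13.6 peaks per Mb, 0.393 times the 34.7 per Mb of chromosome 4. Of 10889 autosomal tiles of 220 kb, 96.4% held at least 1 peak and the median tile held 7. Tiles with 3 peaks or fewer made up 22.5%, so the Pax5 number was low but common. The sides of the window differed. The 220 kb on the low-coordinate side held 15 peaks, the widest of 4453 bp, and the 220 kb on the high-coordinate side held 1 of 412 bp. The nearest peaks outside the window stood 36.1 and 24.3 kb beyond its edges.

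Ikzf1, the Ikaros gene, had a single wide marrow peak. It was 2456 bp, on chromosome 11 from 11711684 to 11714139, about 22.9 kb inside the low-coordinate end of the approximate span of 11.69 to 11.77 Mb. Of all marrow peaks, 6.71% were as wide. It covered 2.05% of the 120 kb window from 11670001 to 11790000, which is near the median of 2.03% over tiles of that length.

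By number of peaks, Ikzf1 had 8.33 per Mb, 0.188 times its chromosome. Of 19971 tiles of 120 kb, 88.3% held at least 1 peak, the median tile held 3, and 24.9% held 1 or none. Its low-coordinate flank of 120 kb had 6 peaks and 12.3% coverage, including 1 peak of 12050 bp, and its high-coordinate flank had 4 peaks and 2.06%. The nearest of these lay 44.0 and 52.5 kb beyond the window. Ebf1 and Ikzf1 share chromosome 11, so their 30 peaks and 1 peak are read against the same chromosome.

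**Figure D3:**
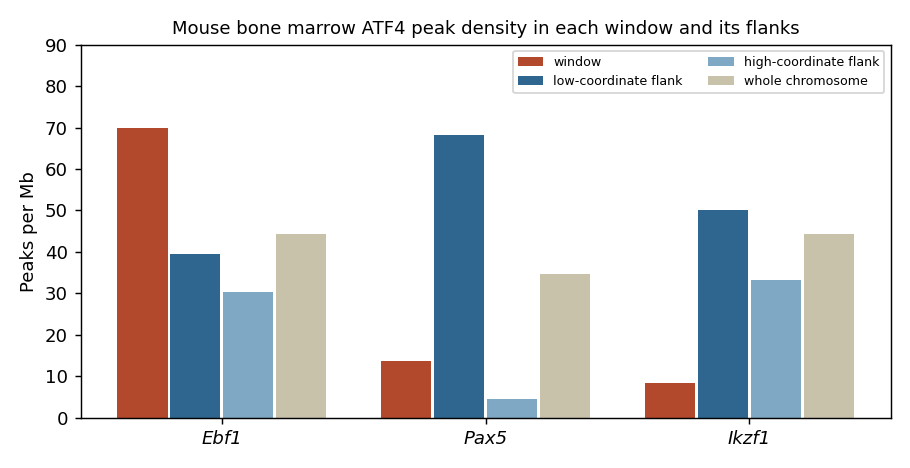
Mouse bone marrow ATF4 peaks per Mb in the window of each gene, in the stretches of the same length on its low-coordinate and high-coordinate side, and on its whole chromosome. Ebf1 (69.8 per Mb) is above both flanks, Pax5 (13.6) lies between a dense flank (68.2) and a sparse one (4.55), and Ikzf1 (8.33) is below both.

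In KG1a cells no member had a peak in its window. The 8 windows add up to 1.36 Mb of GRCh38. Under the same rule 798 of 20037 protein-coding genes, 3.98%, had a peak, and a count of 0 of 8 beside that share is not a result about lymphoid genes. The median number of peaks was 0 for the 8 genes and 0 for all genes. What the list does give is the distance from each gene to its nearest peak. Of the 8 genes, 6 lay more than 1 Mb from a listed peak, against 48.7% of the 19974 protein-coding genes on chromosomes with a peak. The median distance was 1379 kb for the 8 genes and 961 kb over all protein-coding genes. Of 61 other lymphoid genes, described below, 32 lay more than 1 Mb from a peak, with a median of 1314 kb. Of 14 genes from the same families as the members, 10 did, with a median of 1681 kb. The 6 of 8 is therefore not read as particular to the members.

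Among the B lineage factors, TCF3 and EBF1 stood at opposite ends of this range. EBF1 (chromosome 5, 158695920 to 159099916, minus strand) was 17439 kb from the nearest KG1a peak, and 0.966% of protein-coding genes were farther. Chromosome 5 held 25 KG1a peaks in all. The marrow list therefore had 30 peaks at the mouse gene and the KG1a list none at the human gene or for 17.4 Mb around it. The lists differ in species, in cell source, in depth, which is unknown, and in total, with 83088 peaks in marrow and 873 in KG1a. These differences cannot be told apart from a difference in binding. Of marrow tiles as long as the Ebf1 window 99% held a peak, against 3.98% of protein-coding genes with one in KG1a. Peaks in marrow and none in KG1a are therefore not a result about this gene. PAX5 (chromosome 9, 36833269 to 37034268, minus strand) lay 1498 kb from its nearest peak, which is farther than the median gene.

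The promoter of EBF1 is shown because this gene had the most marrow peaks and was the only member with a match in the looser of the searches below. Exact searches on both strands for TGATGCAAT and the TGATGCAA within it, the composite site of ATF4 and C/EBP, and for TGACGTCA and TGACGTAA, of the cyclic AMP response element type, matched 0 of the 16 RefSeq promoter windows of the 8 genes. These windows run from 250 bases before to 50 bases after a transcription start, and all 8 genes have at least 1. Of all 35116 such windows, 0.236%, 0.866%, 1.85% and 0.416% hold these 4 letter strings. With 1 mismatch allowed to TGATGCAA, 1 of the 16 windows matched, that of EBF1, against 15.1% of all windows. A count of 1 of 16 beside that share is not a result about EBF1. The looser search was added after the exact one had been run. The window is chr5:159097907-159098206 (GRCh38.p14, minus strand, RefSeq), printed 5′ to 3′ in lower case with the match in capitals. A match is a description of the letters and not a site.
EBF1 promoter: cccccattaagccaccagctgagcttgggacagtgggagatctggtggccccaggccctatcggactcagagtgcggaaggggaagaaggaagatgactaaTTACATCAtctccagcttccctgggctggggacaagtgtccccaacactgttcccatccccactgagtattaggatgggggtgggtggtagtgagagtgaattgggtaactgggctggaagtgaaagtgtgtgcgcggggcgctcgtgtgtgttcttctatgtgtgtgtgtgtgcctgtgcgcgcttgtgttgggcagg

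The match, TTACATCA, is centred at position -145 relative to the RefSeq start. On the other strand it is also 1 mismatch from TGACGTAA, for which no search with a mismatch was run. The match is therefore not assigned to either type of site. None of the 16 promoter windows overlapped a KG1a peak, which follows from the absence of peaks in the gene windows that contain them. Over the 16, GC content ranged between 35.3% in an IKZF1 window and 78.3% in that of TCF3, around a median of 58.7% for all windows.

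TCF3 (chromosome 19, 1609292 to 1652615, minus strand) came closest to a KG1a peak, outside its window. A peak of 813 bp at 1701596 to 1702408 lay 49.0 kb from the gene and 49.4 kb upstream of its start site. It overlapped no protein-coding gene, and TCF3 was the nearest such gene and had the nearest RefSeq start. Only 0.458% of KG1a peaks were as wide, and it stood in place 53 of 873. What the KG1a list was ordered by is not stated either, so the place is not read as strength. A second peak, of 509 bp at 1551029 to 1551537 in place 783, lay 57.8 kb on the other side of the gene. Its nearest protein-coding gene was MEX3D, 3.13 kb away. Of all protein-coding genes 93.8% were farther from a KG1a peak than TCF3, and both peaks lie outside the 20 kb margin.

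IKZF1 (chromosome 7, 50303455 to 50405101, plus strand), grouped here under both lymphoid lineages, was 1261 kb from its nearest KG1a peak, and 41.4% of genes were farther. That peak was 331 bp wide. The mouse gene had its 2456 bp peak inside the span, and the limits given for EBF1 hold here too. Of marrow tiles as long as the Ikzf1 window 88.3% held a peak, against 3.98% of protein-coding genes with one in KG1a. A peak in marrow and none in KG1a is therefore not a result about this gene.

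The T lineage factors had no KG1a peak near them either. TCF7 (chromosome 5, 134108218 to 134148210, plus strand), which starts the T cell programme downstream of Notch, was 2735 kb from a peak. LEF1 (chromosome 4, 108047548 to 108168932, minus strand), its close relative, was 1063 kb away. GATA3 (chromosome 10, 8045333 to 8075198, plus strand), needed for T cell commitment and helper cells, was 3104 kb away. BCL11B (chromosome 14, 99169287 to 99272197, minus strand), a zinc finger factor of T cell commitment, was 797 kb away. Only BCL11B and TCF3 of the 8 were closer to a peak than the median gene. The peaks nearest to these 4 genes were 319 to 348 bp wide, close to the median of 341 bp in the whole KG1a list.

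**Figure D4:**
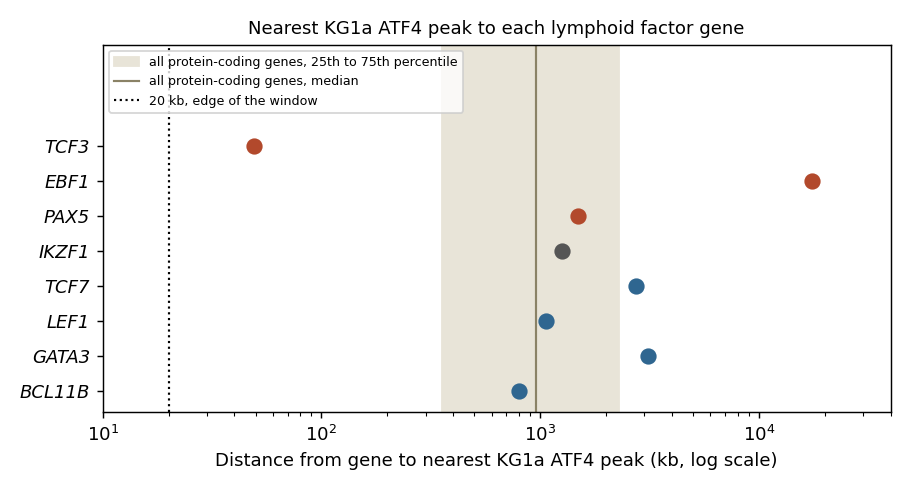
Distance in kb (log axis) from each of the 8 genes to the nearest KG1a ATF4 peak, B lineage genes in red, IKZF1 in grey and T lineage genes in blue; the band spans the 25th to 75th percentile of all protein-coding genes (355 to 2286 kb) with their median of 961 kb, and the dotted line marks 20 kb. No gene lies left of the dotted line, TCF3 at 49.0 kb is nearest and EBF1 at 17439 kb is farthest.

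Other lymphoid genes were scanned in KG1a with the same rule, from 3 lists with 61 genes. A peak was found for 2 of the 61 (3.28%, against 3.98% of all protein-coding genes), and the median number was 0 as for all genes. One was NOTCH1, the receptor gene upstream of TCF7 and GATA3 in the thymus, 1 of 16 T lineage genes. Its peak of 331 bp was inside the gene on chromosome 9, 136530022 to 136530352, 15.9 kb from the start site. The other was POU2AF1, which encodes the B cell coactivator OCA-B, 1 of 31 other lymphoid regulators. Its peak of 342 bp was inside the gene on chromosome 11, 111372679 to 111373020, and 6.43 kb from the high-coordinate end. No peak fell in the windows of 14 B lineage genes, among them RAG1 and IL7R, or of 14 genes from the same families as the members, which are not all lymphoid.

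The distances of 22 relatives of the members ran between 66.5 kb for EBF4 and 15554 kb for GATA1, an erythroid factor gene. EBF4, a paralogue of EBF1, was the closest, and EBF2 and EBF3 were 2527 and 2812 kb away. IKZF3, the Aiolos gene, was 72.1 kb away, and IKZF2, the Helios gene, 637 kb. The other E protein genes, TCF4 and TCF12, were 3610 and 1473 kb away, and BCL11A, which is needed for early B cells, 565 kb. TCF7L1 of the TCF and LEF family was 9897 kb away, IKZF4 5982 kb and PAX8 5519 kb. GATA5, GATA4, PAX2 and ID3 were 142, 178, 518 and 548 kb away, closer than the median of 961 kb over all protein-coding genes. The relatives not named here were farther than that median. As no member had a peak, 19239 protein-coding genes share their count of 0, and no gene could be named as most like them in this respect.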

How the data were processed

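ATF4 ChIP-seq peak lists of mouse bone marrow and KG1a cells were used, 1 per source, each made by the authors from a ChIP and an input library. The tools named per the submitters' processing notes are CASAVA 1.4, Bowtie2, MACS2 and deepTools, and the builds GRCh38 and GRCm38. No threshold is stated. The deposited files have 3 columns, chromosome, start and end; starts were read as counted from 0 and are printed counted from 1. Depth is unknown, so no interval is given.

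KG1a gene spans, start sites and promoter sequences came from RefSeq tables of GRCh38.p14 (20037 protein-coding genes on numbered chromosomes, X and Y). No mouse annotation was used: the spans of Ebf1, Pax5 and Ikzf1 are approximate. Windows are the span plus 20 kb, with 1 shared base as overlap. Tiles are a description and no test was run. The members and gene lists were chosen with earlier results of these data known. Genes of the lists with a KG1a peak in their window were named by rule; MEX3D, RAG1, IL7R and the relatives whose distances are given were chosen after their values were seen. Alternatives changed the margin, the overlap, the peaks kept, the joining of peaks and the guide spans. Code (Python 3.11.15, pandas 2.3.3, numpy 2.4.6) was tested on simulated peaks and recovered the planted counts in 20 of 20 runs.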

Additional observations from a re-analysis of the deposited data

How the results depend on the processing

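In KG1a the count of members with a peak stayed at 0 with margins of 0 and 5 kb, with the peak centre as the criterion, and in the widest and the first 25% of the list. With a margin of 50 kb it was 1 member and 1 peak (6.25% of all protein-coding genes), and with 100 kb it was 1 member and 2 peaks (9.93%), both at TCF3. In marrow, the Ebf1 window kept 10 peaks when only peaks of 1 kb or wider were counted and 10 in the widest 25% of the list. Joining peaks with gaps of 1 kb or less left 16. The Pax5 window kept 1 peak at 1 kb or wider and 1 in the widest 25%. The other counts, between 21 and 32 for Ebf1, 2 and 4 for Pax5 and 1 for Ikzf1, were within 1.5 times the reported ones. Coverage ranged over 5.83 to 8.76% for Ebf1, 0.624 to 1.51% for Pax5 and 1.36 to 3.07% for Ikzf1; window length and the peaks kept set it by construction. No paired analysis was possible because each group has 1 library and no test was run. Lists without height or depth do not show whether a gene without a listed peak lacked binding.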
